A study of Mus musculus with 3 samples.

Results

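Fibronectin (Fn1), the fibrillins (Fbn1 and Fbn2), elastin (Eln), 3 fibulins (Fbln1, Fbln2 and Fbln5), the microfibril-associated glycoproteins Mfap2 and Mfap5, and lysyl oxidase (Lox) were examined as 10 genes of the fibronectin matrix and of the elastic fibre. Members were all non-control probes whose gene name in any of the scanner files was one of these symbols. This gave 18 probes of the 41174 on the array, where 27353 gene labels were present. The files named 16 of the probes alike, 1 probe was named Fn1 in the p53-null file alone, and 1 was named Fbln5 in the ES cell and MEF files alone. The 3 samples were mouse embryonic fibroblasts (MEF) labelled p53-null, embryonic stem (ES) cells, and a culture of MEF whose p53 is wild type per the series design. All samples carried a Nanog-GFP reporter, and each was measured on 1 array with 1 Cy3-labelled total RNA extracted with Trizol. The labels used here give no strain, embryo age, passage or feeder layer, and do not say how p53 was removed. The design set p53-null MEF against MEF and ES cells against MEF.

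Fibronectin is a secreted glycoprotein that cells pull into fibrils through integrins, and the fibrils serve as a template for other matrix proteins. Fibrillins polymerise into microfibrils, which the microfibril-associated glycoproteins decorate and onto which tropoelastin is deposited with the help of fibulins before lysyl oxidase cross-links it. Fibroblasts are a major source of these proteins in connective tissue.

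With 1 array per group there was no replicate check, and no test was possible. Levels are given as processed signal in intensity units, and differences as log2 of the signal after subtraction of each array's 75th percentile, so that a fold need not equal the ratio of the units. A difference was called beyond the technical error where it exceeded 2 combined errors of the scanner software's error model, 10% of a bright signal on each array. The median combined error over the member probes was 0.20 on the log2 scale for p53-null MEF minus MEF. For ES cells minus MEF it was 0.21, and dim probes had larger errors. The error model does not include the spread between cultures. In such bulk samples, fewer cells that make a transcript and less transcript per cell cannot be told apart.

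The number of spots well above background was 26198 in p53-null MEF, 27954 in ES cells and 26462 in MEF, of 43379 non-control spots each, and none was saturated. The p53-null MEF array was slide 1 and scan 1, and both other arrays were slide 2 and scan 2, so that slide, scan and genotype cannot be told apart in the comparison of the fibroblasts. The brighter Trp53 probe read 56.3 units in p53-null MEF, 4902 in ES cells and 1304 in MEF. The other Trp53 probe read 260 units in p53-null MEF, 304 in ES cells and 572 in MEF, and no label says which part of the gene was deleted. The brightest probe of Xist, the transcript of the inactive X chromosome in female cells, read 7437 units in p53-null MEF and was not well above background in ES cells or MEF, so the fibroblast cultures also differed in this X-linked readout. All 10 fibroblast markers on the array were well above background on every array, with a summed scaled signal of 793 in p53-null MEF, 80.4 in ES cells and 1032 in MEF. Of 7 ES cell markers, 2 were well above background in p53-null MEF, 7 in ES cells and 3 in MEF, with a summed scaled signal of 0.307 in p53-null MEF, 525 in ES cells and 0.886 in MEF.

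Of the 18 probes, 17 were well above background in p53-null MEF, 14 in ES cells and 17 in MEF. The exception in both fibroblast arrays was 1 of the 3 Fbln5 probes, which was not well above background on any array and is not ranked. Of the 17 measured probes, 16 were lower in ES cells than in MEF beyond the technical error and 1, the cDNA clone probe of Fn1, was within it. Between p53-null MEF and MEF, 12 probes were lower, 2 were higher and 3 were within the error (with spike-in scaling the Fn1 probes A_51_P100856 and A_52_P11817 were the only ones still below 0). The share of all probes on the array that differed beyond the technical error was not computed. These counts therefore do not set the members apart from other genes.

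**Figure D1:**
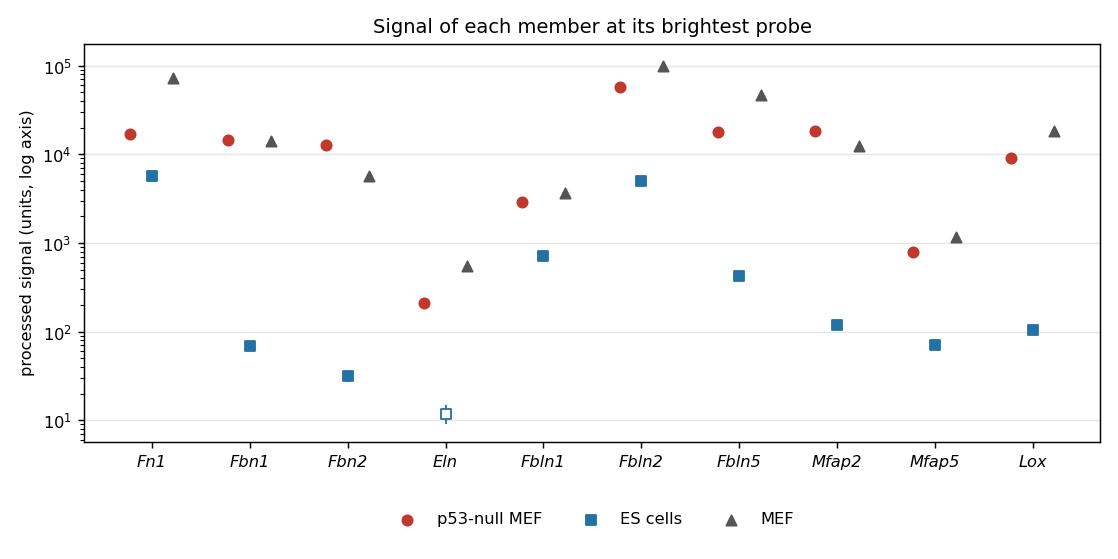
Processed signal (intensity units, log axis) of the 10 members at their brightest probes in p53-null MEF, ES cells and MEF, 1 point per array, with bars for the scanner software's error and an open point where the signal was not well above background (Eln in ES cells). The ES cell point is the lowest for each of the 10 genes, and Fbn1, Fbn2 and Mfap2 have the p53-null MEF point above the MEF point in these unscaled units.

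In p53-null MEF, set against MEF, the fibronectin, elastin, Fbln2, Fbln5 and lysyl oxidase signals were more than 2-fold lower at the brightest probe of each gene (without any scaling Fbln2 was at -0.81 on the log2 scale, within 2-fold), and no member was 2-fold higher. The remaining 5 members were within 2-fold, with Fbn2 the highest at 1.79-fold. The 5 lower members of 10 stood beside 16.7% of all genes measured that were at least 2-fold lower, and the 0 higher members beside 18.5% that were at least 2-fold higher. The median difference of the members was -1.01 on the log2 scale, beside 0.03 for all genes measured, bounds included. These directions hold relative to the 75th percentile: over genes well above background on both arrays the median was 2.03 with scaling on the spike-in control spots and 0.05 with the 75th percentile, and every member except Fn1 was higher in p53-null MEF with spike-in scaling. That scaling moves all genes of an array by the same amount.

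At the brightest probes and relative to the 75th percentile, fibronectin had the largest difference of the members between p53-null MEF and MEF. Over all of its probes the log2 difference was -1.22 by the mean and -0.67, within 2-fold, by the median. By either, Eln, Lox and Fbln5 were further below 0. By the median, Fbln2 (-1.14), Mfap5 (-0.89) and Fbln1 (-0.73) were also further below 0 than Fn1. The 4 Fn1 probes are shown because they did not give the same direction. The sequences are 60-base probes read 5′ to 3′ from the ES cell and MEF scanner files, in lower case with no base marked. Only the first 30 bases are shown for the probe designed to a cDNA clone. The other probes carry the RefSeq mRNA of Fn1 as their accession.
A_51_P100856: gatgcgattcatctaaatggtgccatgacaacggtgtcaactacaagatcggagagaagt
A_52_P11817: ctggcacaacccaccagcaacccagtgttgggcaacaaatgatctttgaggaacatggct
A_52_P299974: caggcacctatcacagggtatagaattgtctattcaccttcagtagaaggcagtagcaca
A_52_P237357: gtctacataccttacacacacttgtgtctt

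All lie on the minus strand of chromosome 1 in build mm8. A_51_P100856 is at chr1:71524056-71526293, A_52_P11817 at chr1:71530761-71530820, the clone probe A_52_P237357 at chr1:71537324-71537383 and A_52_P299974 at chr1:71560522-71561280. A_51_P100856 spans 2238 bases of genome and A_52_P299974 spans 759, more than their 60 bases, whereas the other probes match unbroken stretches. The clone probe lies between 2 of the mRNA probes, and whether it falls in an exon or an intron was not determined.

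A_51_P100856, the brightest, was printed at 10 spots. It read 17063 units in p53-null MEF (SD between spots 419, 9 spots kept), 5770 units in ES cells (SD 247, 10 spots) and 72729.5 units in MEF (SD 2266, 10 spots). The spots of the 3 arrays did not overlap: they ran from 16242 to 17707 units in p53-null MEF, from 5381 to 6211 in ES cells and from 69895 to 77209 in MEF. These spots are technical repeats of 1 hybridisation each. The difference between p53-null MEF and MEF was -2.42 ± 0.20 on the log2 scale (combined error), or 5.35-fold lower, and it remained below 0, at -0.44, with spike-in scaling. That between ES cells and MEF was -3.67 ± 0.20, or 12.7-fold lower (-2.83 by the mean and -2.03 by the median of its probes), which placed ES cells 2.37-fold below p53-null MEF.

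A_52_P11817 read 2040 units in p53-null MEF, 728 in ES cells and 10860 in MEF, which made it 6.69-fold lower in p53-null MEF and 15.0-fold lower in ES cells, each against MEF. A_52_P299974 read 374 units in p53-null MEF, 55.2 in ES cells and 654 in MEF, with 2.19-fold lower signal in p53-null MEF (higher, at 0.85 on the log2 scale, with spike-in scaling) and 11.9-fold lower signal in ES cells. The 3 mRNA probes thus had the same order of samples, MEF above p53-null MEF above ES cells, and their log2 differences ran from -2.74 to -1.13 for p53-null MEF against MEF and from -3.91 to -3.58 for ES cells against MEF. The clone probe read 6771 units in p53-null MEF, 1835 in ES cells and 2037 in MEF. It was 2.65-fold higher in p53-null MEF than in MEF, while ES cells and MEF differed by less than the technical error (log2 difference -0.16). The 4 Fn1 probes spread over 4.15 log2 units in the p53-null comparison, beside a median spread of 0.64 among 5626 genes with several measured probes. Those genes were not matched to Fn1 in the number of probes, with which such a spread tends to widen.

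**Figure D2:**
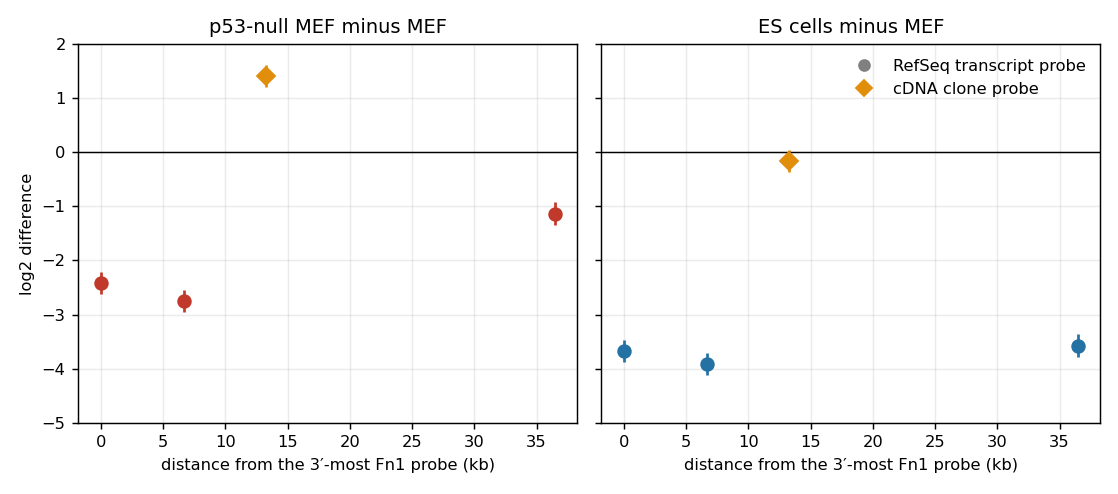
Log2 difference of the 4 Fn1 probes against their distance from the probe nearest the 3′ end of the gene (kb), for p53-null MEF minus MEF and ES cells minus MEF, with bars for the combined technical error. The 3 mRNA probes sit below 0 in both comparisons, and the clone probe between them sits at 1.40 for p53-null MEF and at -0.16 for ES cells; with spike-in scaling A_52_P299974 is above 0 in the p53-null comparison.

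Fibrillin-2, which is made mostly during embryonic development, was 1 of the 2 genes whose brightest probe was highest in p53-null MEF. With spike-in scaling, every member except Fn1 was higher in p53-null MEF than in MEF. The Fbn2 probe (chr18:58137687-58137746, minus strand) read 12771 units in p53-null MEF, 31.2 in ES cells and 5671 in MEF. The signal was 1.79-fold higher in p53-null MEF, beyond the technical error, and 183-fold lower in ES cells (-6.11 on the log2 scale with the normexp background correction in place of the scanner software's), each against MEF. ES cells were 328-fold below p53-null MEF, the widest gap of any member between those samples.

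Fibrillin-1, the main fibrillin of mature microfibrils, did not differ between the fibroblast arrays beyond technical error. Probe A_51_P467224 (chr2:124992432-124992491, minus strand) read 14675 units in p53-null MEF, 69.0 in ES cells and 14022 in MEF. Its log2 difference was -0.26 ± 0.20 for p53-null MEF and -7.68 for ES cells, a signal 205-fold lower in ES cells than in MEF (-6.74 with normexp). The other Fbn1 probe, at chr2:124992959-124993018, read 3348 units in p53-null MEF, 20.7 in ES cells and 3245 in MEF, with -0.28 for p53-null MEF and a 158-fold lower signal in ES cells (-5.33 on the log2 scale with normexp). The probes of Fbn1 were within 0.02 of each other on the log2 scale in the p53-null comparison.

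Of the microfibril-associated glycoproteins, which bind fibrillin, Mfap2 was within technical error and Mfap5 was lower by less than 2-fold in p53-null MEF. With spike-in scaling both were higher in p53-null MEF, Mfap2 at 2.22 and Mfap5 at 1.09 on the log2 scale. The brighter Mfap2 probe, A_51_P227502 (chr4:140287975-140288034, plus strand), read 18578 units in p53-null MEF, 119 in ES cells and 12547 in MEF. Its log2 difference was 0.24 ± 0.20 for p53-null MEF, which put Mfap2 with Fbn2 as the other gene highest in p53-null MEF, and it was 106-fold lower in ES cells (-6.06 on the log2 scale with normexp). The other probe, A_52_P28379 (chr4:140286266-140286325), read 337 units in p53-null MEF, 5.39 in ES cells, not well above background, and 388 in MEF. That probe had -0.53 on the log2 scale in p53-null MEF and a signal at least 38.7-fold lower in ES cells than in MEF by the processed signal. With normexp the ES cell difference was -2.88 on the log2 scale. The first 30 bases of these probes are given because their differences between the fibroblast arrays had opposite signs (both were above 0 with spike-in scaling).
A_51_P227502: gtctgcttggatttcctacgccccaggcat
A_52_P28379: agtgagtcctcggacccctgaagagcagtt

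Mfap5 (chr6:122494539-122494598, plus strand) read 789 units in p53-null MEF, 71.0 in ES cells and 1163 in MEF. Against MEF, the signal was 1.85-fold lower in p53-null MEF, beyond the technical error, and 16.5-fold lower in ES cells (-3.07 on the log2 scale with normexp).

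Elastin, the polymer that gives elastic fibres their recoil, had a lower signal in p53-null MEF (higher with spike-in scaling) and was near background in ES cells. Its single probe (chr5:134987886-134987945, minus strand) read 209 units in p53-null MEF, 11.9 in ES cells, not well above background, and 553 in MEF. The difference of -1.74 ± 0.21 on the log2 scale was a 3.33-fold lower signal in p53-null MEF, and it turned to 0.24 with spike-in scaling. In ES cells the probe's own signal was 46.8-fold lower than in MEF, and the log2 difference was -2.98 with normexp. The ES cell signal was above the lowest signal marked well above background on that array among probes valued on every array (10.9 units). The bound left the fold unchanged, so the fold is not a minimum.

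Fibulins link microfibrils, elastin and basement membranes, and all 3 on the list had lower signals in p53-null MEF (higher with spike-in scaling). Fbln1 was within 2-fold: its brighter probe (chr15:85113334-85113393, plus strand) read 2868 units in p53-null MEF, 720 in ES cells and 3713 in MEF. These signals were 1.63-fold lower in p53-null MEF, and 5.19-fold lower in ES cells, than in MEF. The other Fbln1 probe, at chr15:85113190-85113250, read 907 units in p53-null MEF, 587 in ES cells and 1213 in MEF, with 1.68-fold lower signal in p53-null MEF and 2.08-fold lower signal in ES cells. At that probe the ES cells and p53-null MEF differed by less than the technical error, and Fbln1 had the smallest ES cell difference of the 10 genes.

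Fbln2 (chr6:91237628-91237687, plus strand) read 57035 units in p53-null MEF, 5023 in ES cells and 99998 in MEF. The log2 difference from MEF was -1.14 in p53-null MEF (0.84 on the log2 scale, and so higher, with spike-in scaling) and the ES cell signal was 20.0-fold lower. Fbln5, which binds elastin and lysyl oxidase-like enzymes, had its brightest probe A_51_P186703 at chr12:102151029-102151088 on the minus strand. This probe carries the name of a cDNA clone in the newer file. It read 18017 units in p53-null MEF, 422 in ES cells and 46988 in MEF, that is 3.28-fold lower in p53-null MEF (0.27 on the log2 scale with spike-in scaling) and 112-fold lower in ES cells (-4.72 on the log2 scale by the mean of its probes and -6.61 with normexp). Probe A_52_P278336, at chr12:102147718-102147777, read 42.8 units in p53-null MEF, 2.31 in ES cells, not well above background, and 72.5 in MEF. Its signal was 2.13-fold lower in p53-null MEF (0.89 on the log2 scale with spike-in scaling) and, by the processed signal, at least 7.23-fold lower in ES cells, where normexp gave -1.15 on the log2 scale. The 5′ bases of the Fbln5 probes are shown because the brighter was given different names by the files.
A_51_P186703: gcccagtttttacgaagaccccttaatcat
A_52_P278336: agacaaaactagaacatgacctcttttagt

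The third Fbln5 probe (chr12:102165542-102165601) read 3.87 units in p53-null MEF, 2.30 in ES cells and 11.8 in MEF, and no fold was given.

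Lysyl oxidase, the enzyme that cross-links elastin and collagens, was lower in ES cells and, except with spike-in scaling, in p53-null MEF than in MEF. Its probe (chr18:52641882-52641941, minus strand) read 9066 units in p53-null MEF, 104 in ES cells and 18141 in MEF. The signal was 2.51-fold lower in p53-null MEF (0.65 on the log2 scale, and so higher, with spike-in scaling) and 176-fold lower in ES cells than in MEF (-6.83 on the log2 scale with normexp). ES cells were 69.9-fold below p53-null MEF.

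**Figure D3:**
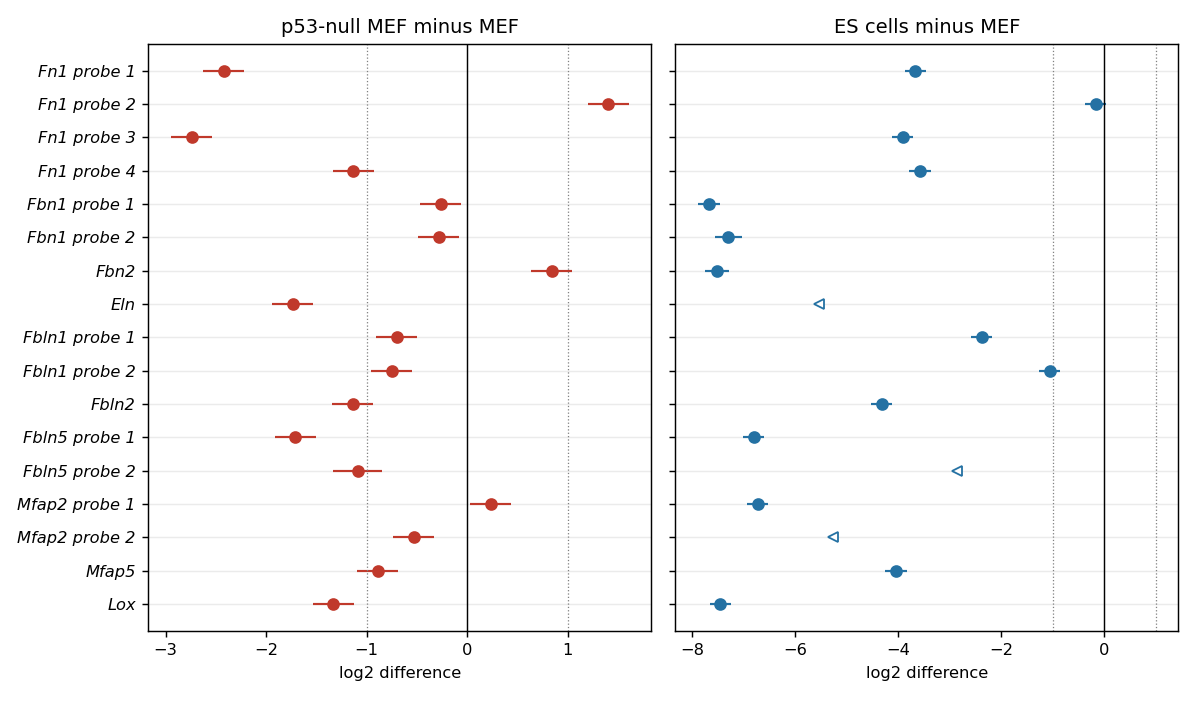
Log2 difference of each measured member probe for p53-null MEF minus MEF and ES cells minus MEF. Bars show the combined technical error, dotted lines mark 2-fold, and the probes of a gene are numbered from the brightest. Open triangles mark probes not well above background in ES cells, whose values are bounds except that of Eln, which is not a minimum. Differences of the brightest probes run from -2.42 to 0.84 for p53-null MEF and from -7.68 to -2.38 for ES cells; with spike-in scaling all members but Fn1 are above 0 in the p53-null comparison.

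All 10 members were more than 2-fold lower in ES cells than in MEF at the brightest probe, where 27.3% of all genes measured were at least 2-fold lower and 32.8% were at least 2-fold higher. The median difference of the members was -6.14 on the log2 scale, beside 0.21 for all genes, and Eln entered it with a signal not well above background in ES cells. Fbn1, Fbn2, Lox, Fbln5 and Mfap2 differed by more than 100-fold at the brightest probe, of which Fbn2, Fbln5 and Mfap2 were under 100-fold with normexp, while Eln, Fbln2, Mfap5 and Fn1 differed by 46.8-fold to 12.7-fold and Fbln1 by 5.19-fold. The 10 fibroblast markers also were all 2-fold or more lower in ES cells, with a median of -6.08, and the 6 smooth muscle markers with a median of -4.74. In the p53-null comparison 3 of 10 fibroblast markers were 2-fold lower and none higher, with a median of -0.43. Among smooth muscle markers 2 were lower and 2 higher, with a median of -0.17 and summed scaled signals of 538 in p53-null MEF, 13.8 in ES cells and 493 in MEF. The summed scaled signal of 6 macrophage markers was 0.576 in p53-null MEF, 0.700 in ES cells and 2.98 in MEF, and 2 of them had p53-null signals more than 2-fold lower: Lyz2, by 19.7-fold (-0.51 on the log2 scale at its other probe), and Csf1r, not well above background there, by at least 3.08-fold. The signal of Ptprc in p53-null MEF was at least 2.41-fold that in MEF, where it was not well above background. The 5 endothelial markers summed to 0.668 in p53-null MEF, 1.23 in ES cells and 0.496 in MEF, and the 5 epithelial markers to 7.42 in p53-null MEF, 39.1 in ES cells and 4.72 in MEF. Their part in the results on the members was not tested.

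In the order of scaled levels, 8 of the 10 genes were highest in MEF, with p53-null MEF next and ES cells lowest. The share of all genes measured that had this order was not computed. That order did not hold with spike-in scaling, where every member except Fn1 was higher in p53-null MEF than in MEF. The values that follow are those without spike-in scaling. For Fbn1 and Mfap2 the fibroblast samples were neighbours that did not differ beyond 2 technical errors, and for Fbn2 p53-null MEF was above MEF. ES cells and p53-null MEF differed beyond the technical error at every brightest probe, from 2.37-fold for Fn1 to 328-fold for Fbn2. Fbn1, by its 170-fold gap between ES cells and p53-null MEF, and Mfap2, by 125-fold, followed Fbn2, and Fbln1 with 3.19-fold followed Fn1 at the other end.

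A list of 34 companion genes, which covers lysyl oxidase-like enzymes, further fibulins and emilins, latent TGF-beta binding proteins, processing proteases and fibronectin receptors, had 33 genes on the array and 32 measured. In p53-null MEF 11 of the 32 were at least 2-fold lower and 3 were higher than in MEF, with a median of -0.67 on the log2 scale (1.31 with spike-in scaling). The shares over all genes measured were 16.7% lower and 18.5% higher. The largest differences were those of Ltbp2, a latent TGF-beta binding protein family member found on microfibrils, and of Adamtsl4, a microfibril-binding glycoprotein. Ltbp2 read 2284 units in p53-null MEF, 193 in ES cells and 25143 in MEF, a signal 13.8-fold lower in the p53-null cells, with -2.26 on the log2 scale at its other probe. Adamtsl4 read 191 units in p53-null MEF, 51.5 in ES cells and 1514 in MEF, 9.93-fold lower in p53-null MEF.

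The higher companions were the integrin subunits Itga4 and Itgb3 and the transglutaminase Tgm2. Itga4 read 465 units in p53-null MEF, 10.6 in ES cells, not well above background, and 63.6 in MEF. It was 5.82-fold higher in p53-null MEF (1.67 on the log2 scale with normexp), and its other measured probes were also higher, by 0.75 to 2.42 on the log2 scale. Itgb3 read 2062 units in p53-null MEF, 42.1 in ES cells and 508 in MEF, 3.23-fold higher in p53-null MEF, with 0.22 on the log2 scale at its other probe and 0.96, within 2-fold, by the mean of both. Tgm2 was 2.08-fold higher at the brightest probe but had -0.75 to -0.23 at its other probes.

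Itga5 and Itgb1, the subunits of the main fibronectin receptor, were within 2-fold in p53-null MEF (1.75-fold and 1.29-fold lower). With spike-in scaling they were more than 2-fold higher, at 1.17 and 1.61 on the log2 scale. Among elastic fibre assembly genes, the fibulins Efemp1 and Efemp2 had p53-null signals 2.51-fold and 2.24-fold lower than MEF, and Ltbp1 was 2.17-fold lower, where spike-in scaling gave 0.65, 0.82 and 0.86 on the log2 scale. Within 2-fold in p53-null MEF were Loxl1, 1.53-fold lower than in MEF, Emilin1, 1.73-fold lower, and the procollagen protease Bmp1, 1.48-fold lower. The other Bmp1 probe was at -1.99 on the log2 scale, and the mean of both, -1.28, was past 2-fold. At the brightest probes, spike-in scaling put Loxl1 at 1.37, Emilin1 at 1.19 and Bmp1 at 1.42, more than 2-fold higher. In ES cells 30 of the 32 companions were at least 2-fold lower than in MEF, with a median of -4.41, where 27.3% of all genes measured were lower and 32.8% higher. Loxl2 was 168-fold, Ltbp2 131-fold, Efemp1 114-fold and Loxl1 59.1-fold lower in ES cells. The other Ltbp2 probe was at -2.60 on the log2 scale there, and the mean of both at -4.92. With normexp Loxl2 was at -6.53. Efemp2 was 39.9-fold, Ltbp1 37.4-fold, Emilin1 29.3-fold and Bmp1 22.0-fold lower, and the receptor subunits Itga5 and Itgb1 were 4.45-fold and 3.81-fold lower. The companion at least 2-fold higher in ES cells was Ltbp4, which read 2333 units in p53-null MEF, 25652 in ES cells and 3590 in MEF, 7.10-fold higher in ES cells than in MEF. Mfap3, at 0.83 on the log2 scale, was within 2-fold.

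**Figure D4:**
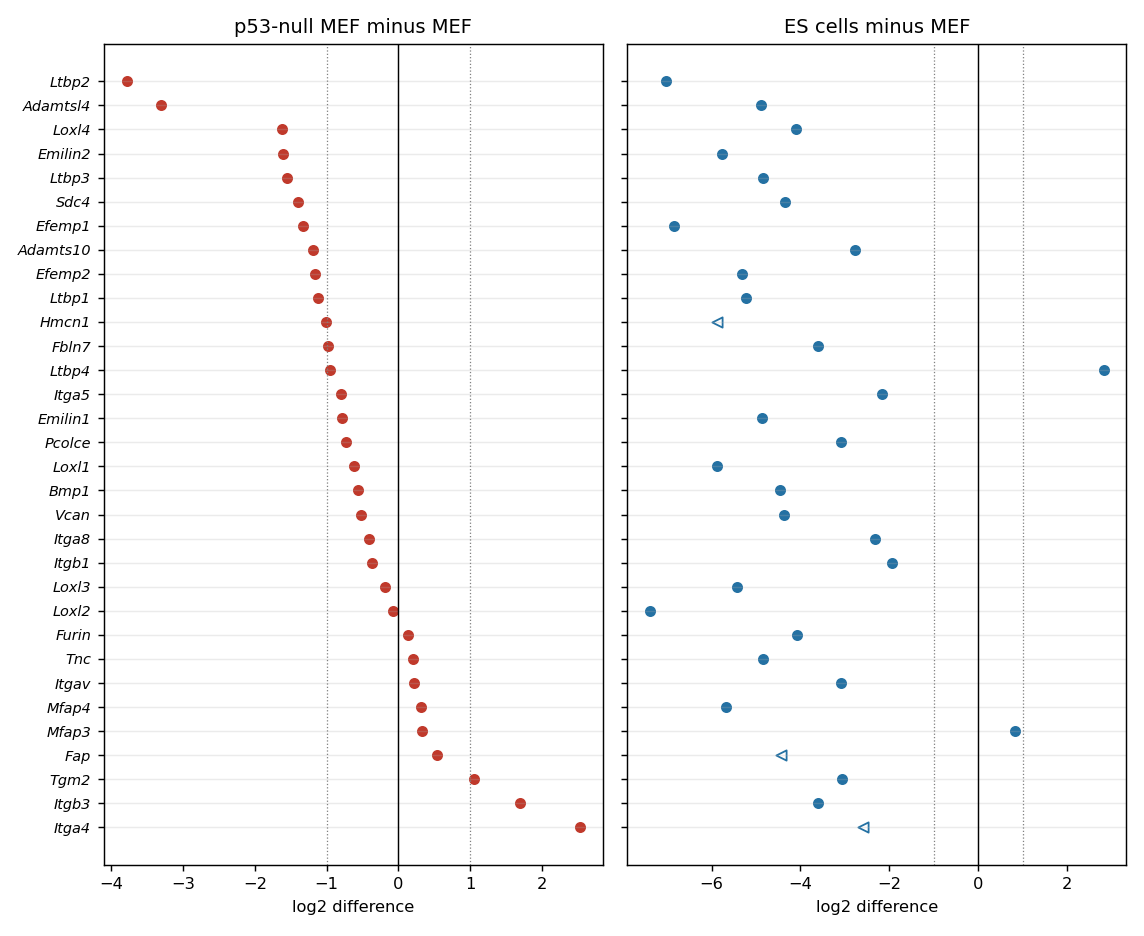
Log2 difference of the 32 measured companion genes at their brightest probes, in the order of the p53-null differences. The left panel shows p53-null MEF minus MEF and the right panel ES cells minus MEF, and dotted lines mark 2-fold. Open triangles mark genes not well above background in ES cells. Their values are bounds except that of Itga4, which is not a minimum. The differences run from -3.79 for Ltbp2 to 2.54 for Itga4 in p53-null MEF (with spike-in scaling their median is 1.31), and Ltbp4, at 2.83, is furthest above 0 in ES cells.

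Over 14210 genes well above background on all 3 arrays, the genes nearest to each of Fn1, Fbn1 and Lox in the pair of log2 differences were listed by Euclidean distance. Fn1 was nearest to Pla2g7 (0.0368) and Sugct (0.0928). Fbn1 was nearest to Mylk (0.0450) and Igf2 (0.237), and Lox to Zfp503 (0.0132) and Tinagl1 (0.168). Matches were also computed for Eln but are not listed, because its ES cell signal was not well above background. The distance rests on 3 arrays and 2 differences that share the MEF array.

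**Figure D5:**
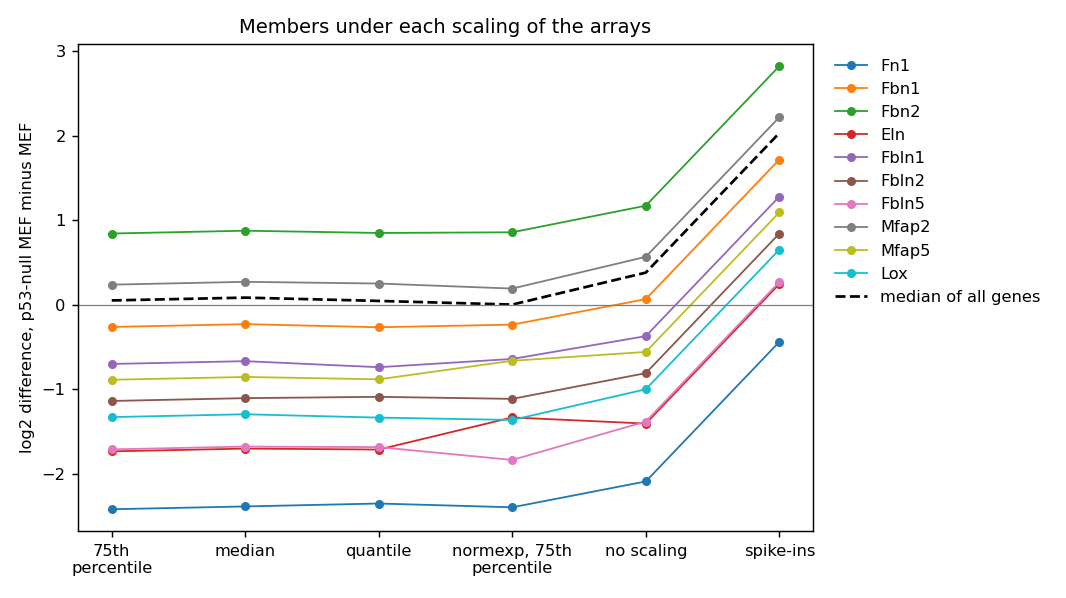
Log2 difference of each member for p53-null MEF minus MEF under each way of scaling the arrays, with the median over genes well above background on both arrays (dashed). With spike-in scaling that median is 2.03 and all members but Fn1 (-0.44) are above 0, since that scaling moves all genes of an array alike.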

How the data were processed

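The authors deposited linear spot intensities, made by Agilent Feature Extraction (version 9.5.3.1 in the file headers) with background subtraction and detrending, per the file headers. The deposited value table of the series held the same intensity values, with ratios between 0.995 and 1.005 and column medians of 51.8 for p53-null MEF, 50.0 for ES cells and 43.2 for MEF. It is thus linear and not centred, and 1 signal per array has no direction. Its columns were all used.

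Control spots (1639) and the spots marked uneven or outlying were left out (62 in p53-null MEF, 176 in ES cells, 192 in MEF). Log2 of the signal minus each array's 75th percentile (1040 units in p53-null MEF, 834 in ES cells and 828 in MEF) was averaged per probe, and 41050 of 41174 probes were valued on every array. The mark for well above background was required on 50% or more of a probe's kept spots. The brightest probe stood for a gene. Where 1 array was dim, the bright signal was divided by the dim signal or, if higher, by the lowest signal well above background there, and the last case was written as "at least". Genes at least 2-fold different were counted.

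Names of other genes were updated through RefSeq (GRCm38.p6), which matched 33438 probes. Positions come from the p53-null file, on mm8, since the other files cite mm7. Probes were not placed in exons or untranslated regions, for lack of a genome of that build here. Sequences come from the ES cell and MEF files.

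No test was run with 1 array per group, and the number of arrays limits the precision. The counting of changed genes was run on simulated data and recovered 100 of 100 raised and 100 of 100 lowered probes in each comparison. That run concerned the counting step alone, and how many unchanged probes were called is not reported. Its bearing on the scaling or on the members' values was not tested. All members were named, with the 4 companion genes of largest difference in each comparison and 8 fixed companions. Genes outside that rule (Tgm2, Ltbp4, Mfap3, Lyz2, Csf1r, Ptprc) were named after their values were seen. Members and lists were chosen with earlier results of these data known. Alternatives were other scalings (median, quantile, none, 7 spike-in probes), normexp background with offset 50 (limma 3.58.1, R 4.3.3), all spots, the mean or median probe, no filter, the value table and a 5-fold count. Python 3.11.15 with numpy 2.4.6, pandas 2.3.3 and matplotlib 3.10.9 was used.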

Additional observations from a re-analysis of the deposited data

How the results depend on the processing

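Keeping all spots or taking the value table moved no value of the members or named companions beyond the technical error. Neither moved a count by over 1.5 times. Dropping the filter and the bounds was run at the brightest probes alone. It could not move the members or named companions, since no value of theirs there was altered by the filter or a bound. The counts of companions did not change. No paired analysis was possible because each group had 1 array. In p53-null MEF against MEF, the 5 lower members became 1 at 5-fold, 4 with the median probe (Fn1 at -0.67), 4 without scaling (Fbln2 at -0.81) and 0 with spike-in scaling. The 0 higher members became 1 without scaling and 5 with spike-in scaling. Their median of -1.01 became -0.81 with the median probe, -0.68 without scaling and 0.97 with spike-in scaling. The 11 lower companions became 2 at 5-fold, 6 without scaling and 2 with spike-in scaling. The 3 higher companions became 1 at 5-fold, 1 with the mean probe, 1 with the median probe and 20 with spike-in scaling. The companions' median of -0.67 became -0.34 without scaling and 1.31 with spike-in scaling. Spike-in scaling, which rested on 7 probes, reversed Eln (0.24), Fbln2 (0.84), Fbln5 (0.27), Lox (0.65), Efemp1 (0.65), Efemp2 (0.82), Ltbp1 (0.86), Fn1 probe A_52_P299974 (0.85) and Fbln5 probe A_52_P278336 (0.89). The median of genes well above background on both arrays was 2.03 with spike-in scaling and 0.05 with the 75th percentile. Most of those genes were thus more than 2-fold higher in p53-null MEF with spike-in scaling, as were many members and companions. Shares over all genes were computed for the main setting alone, so the counts under the alternatives have no share beside them. In ES cells against MEF no called direction was reversed. The members' median of -6.14 became -5.13 with the mean probe, -5.26 with the median probe, -6.36 with median scaling, -5.87 with spike-in scaling and -5.24 with normexp. The companions' median of -4.41 became -4.12 with the mean probe, -4.63 with median scaling, -4.14 with spike-in scaling and -3.72 with normexp, and the 1 higher companion became 2 with spike-in scaling. The cause of these shifts was not tested. With normexp the ES cell difference was -2.98 for Eln, -2.88 for Mfap2 probe A_52_P28379 and -1.15 for Fbln5 probe A_52_P278336. Signals near background limit these values.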

Other observations

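Probes of other names were sought on the same strand within each member's gene length of its probe nearest the 3′ end, a search chosen after seeing the data. Fbn2, with a window of 201950 bases on chromosome 18 (mm8), was the member that had any. The probe named AK053721, which starts at 58152989, read 145 units in p53-null MEF, 2.59 in ES cells, not well above background, and 34.1 in MEF, 3.37-fold higher in p53-null MEF than in MEF. The probe named 5930427J20Rik, at 58216663, read 335 units in p53-null MEF, 2.28 in ES cells, not well above background, and 25.7 in MEF, 10.4-fold higher in p53-null MEF. The probe named D330023I04Rik, at 58331999, read 377 units in p53-null MEF, 2.62 in ES cells, not well above background, and 50.2 in MEF, 5.98-fold higher in p53-null MEF. The probes named AK051785 and AK033348 were not well above background on any array. The Fbn2 probe itself was 1.79-fold higher in p53-null MEF. Their relation to the transcript of Fbn2 was not tested.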
